A study of Mus musculus with 9 samples.

Results

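The knockdown of Fkbp5 was compared with the control in C2C12 cells, myoblasts of mouse muscle origin that stop dividing and form multinucleate myotubes after the growth medium is changed. The comparison was between 6 of the 9 libraries of the series, namely the Fkbp5 knockdown at days 0, 3 and 5 of differentiation and the control at days 0, 3 and 5. The model behind the calls, standard errors and p values was fitted to all 9 libraries. The Fkbp4 knockdown libraries thus shared in its day terms and in its estimate of the spread. Each genotype and day was represented by 1 library, so each knockdown library was paired with the control library of its day and the 3 days stood in for replicates. The labels give neither the method of knockdown, nor the sequence of the control, nor whether the libraries of a genotype came from separate cultures, so p values measure the spread between these libraries. Per the labels, cells grew in serum-supplemented DMEM, were switched at day 0 to DMEM with Insulin-Transferrin-Selenium, and later received DMEM with HS. Of 47728 genes listed in the count tables, 10893 had a mean of at least 5 CPM (counts scaled to the library total, corrected for library composition) over the 6 libraries, and 10887 of these also passed the low-count filter of the model.

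Fkbp5 encodes FKBP51, a peptidyl-prolyl isomerase that binds Hsp90 through its tetratricopeptide domain and assists client proteins such as steroid receptors and kinases. Differentiating myoblasts stop dividing, switch on the MyoD and MEF2 families of transcription factors, and then build the contractile apparatus, the calcium-release triad and the endplate. Cyclin D with Cdk4 or Cdk6 drives the cycle that must stop first, and the title of the series places FKBP51 at Cdk4. The libraries therefore ask which transcripts differed before serum was withdrawn and which differed once muscle genes were on.

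Total counts lay between 3932372 and 4863068 over the 6 libraries, and 3 counts, the limit that a count of 0 allows, corresponded to 0.617 to 0.763 CPM. The cells carried the markers of their label: all 10 myoblast identity genes were tested and none was called, with Desmin at 1008, 2876 and 4061 CPM at days 0, 3 and 5 in the Fkbp5 knockdown against 998.2, 2645 and 3891 CPM in the control. Markers of other lineages were in part absent and in part well expressed. Adipoq, Plin1, Cidec, Retn and Lep of 10 adipocyte markers had no read, nor did Ibsp, Acan and Comp of 10 osteoblast and chondrocyte markers, Thy1 and Tcf21 of 10 fibroblast markers, or Rbfox3, Snap25 and Sox10 of 9 neural markers. Of 8 smooth muscle markers, 5 were tested and 0 called. The list summed to 688.6, 2046 and 2321 CPM at days 0, 3 and 5 in the Fkbp5 knockdown against 1249, 2729 and 1964 CPM in the control, mostly from the actin Acta2. The neural list summed to 196.1, 319.9 and 231.7 CPM against 199, 233.6 and 201.8 CPM, mostly from Tubb3 and Map2. The adipocyte list summed to 71.6, 165.9 and 242.9 CPM against 87.42, 94.68 and 169 CPM, mostly from Lpl. The osteoblast and chondrocyte list summed to 79.56, 92.21 and 86.05 CPM against 95.41, 106.3 and 108.6 CPM, mostly from Sox9 and Runx2. No gene of the smooth muscle, neural, adipocyte or osteoblast lists was called by edgeR, DESeq2 or limma voom. At an unadjusted p under 0.05 in edgeR, 1 adipocyte and 1 neural gene were higher and 1 adipocyte and 1 osteoblast gene lower. Over all genes, 1985 of the 12498 tested were at that unadjusted p. Of 7 fibroblast markers tested 1, Cd34, was called higher by each of these tools and is described below. The 12 immune and endothelial markers summed to 2.71 to 3.50 CPM in the Fkbp5 knockdown and 2.40 to 4.88 CPM in the control. Mitochondrial transcripts took 2.57%, 4.52% and 10.06% of the counts at days 0, 3 and 5 in the Fkbp5 knockdown, against 1.8%, 4.75% and 4.01% in the control, so the knockdown library of day 5 stood apart.

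The knockdown lowered Fkbp5 mRNA at each day. Fkbp5 (ENSMUSG00000024222, GRCm38 chromosome 17 from 28399094 to 28517527, minus strand) stood at 21.6%, 43.0% and 31.4% of the same-day control at days 0, 3 and 5, on 17, 14 and 21 reads in the knockdown against 91, 31 and 61 reads in the control. The 95% counting intervals of these same-day log2 ratios all lay below 0, from −3.05 to −1.45 at day 0, −2.24 to −0.26 at day 3 and −2.46 to −0.94 at day 5. Over the 3 days the log2 fold change was −1.72 (SE 0.24, adjusted p = 0.00825 by edgeR's quasi-likelihood test with Benjamini-Hochberg adjustment). The call was missed without the Fkbp5 knockdown library of day 5 (−1.77, adjusted p = 0.0536). The related FKBP52 gene Fkbp4 stood at 248, 145 and 143 CPM in the Fkbp5 knockdown against 242, 143 and 136 CPM in the control, and its difference of 0.06 (SE 0.11) did not pass. Among 30 tested FK506-binding proteins and cyclophilins, the family of prolyl isomerases, 0 were called higher and 1, Fkbp5, was called lower. Over all genes tested 1.46% were called lower.

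In total 272 of 12498 genes tested were called at an adjusted p under 0.05, a background of 2.18%. Of these 89 were higher in the Fkbp5 knockdown (0.712%) and 183 lower (1.46%). Among the 10887 genes of at least 5 CPM, 266 were called (2.44%), 86 higher (0.790%) and 180 lower (1.65%). Of those 266 genes 254 had the same sign in all 3 same-day pairs, 83 higher and 171 lower. The 171 include Cav3, which had no read at day 0 in either genotype and so no observed difference there. The fit favours genes whose difference agrees over the days of these same libraries. The shared sign is thus in large part set by the call and is no separate support for it. Over all 10887 genes 3965 (36.4%) had the same sign in all pairs, 1785 higher (16.4%) and 2180 lower (20%). A difference of 2-fold or more at every day was found in 21 called genes that were lower and 5 that were higher. The count of called genes fell to 40 without the Fkbp5 knockdown library of day 5, and was 113, 51 and 54 when the control of day 0, 3 or 5 was left out. The 272 called genes kept their direction in each of those 4 fits, which share most libraries with the fit that chose the genes.

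The 4 genes of smallest p, Wbp2, Rpn2, Ano6 and Alg10b, were lower at day 0 and at days 3 and 5 alike. Their same-day log2 differences lay between −1.24 (Ano6 at day 3) and −1.89 (Alg10b at day 5). The muscle genes Myh4 and Smpx, next in order of p, had 0 to 8 reads at day 0 and are given with the muscle genes. Rpn2, a subunit of the oligosaccharyltransferase that attaches N-linked glycans in the endoplasmic reticulum, stood at 82.6, 62.5 and 66.2 CPM at days 0, 3 and 5 in the Fkbp5 knockdown, against 249, 232 and 225 CPM in control cells, a log2 fold change of −1.73 (SE 0.10, adjusted p = 3.52e-05). The knockdown libraries thus held 33.1%, 26.9% and 29.5% of the control level, and no knockdown value came near a control value. Alg10b, the glucosyltransferase that adds the last glucose to the lipid-linked glycan precursor, stood at 28.7, 25.5 and 19.9 CPM in the knockdown against 84.1, 72.2 and 75.0 CPM in the control (−1.63, SE 0.11, adjusted p = 9.96e-05). Magt1, a subunit of one form of the same transferase that is also described as a magnesium transporter, stood at 70.6, 83.6 and 80.4 CPM against 139, 166 and 136 CPM (−0.89, SE 0.09, adjusted p = 0.0016). These were the 3 genes called lower of 35 tested in the N-glycosylation list (background 1.46%), and 0 were called higher. No other subunit of the transferase in the list was called. Rpn1 stood at 350, 245 and 269 CPM in the knockdown, against 274, 250 and 240 CPM in the control (0.18, adjusted p = 0.482), and Ddost, Stt3a, Stt3b, Dad1 and Ostc differed by between −0.07 and 0.26 without passing. The list median was 0.08, against 0.005 over all genes tested.

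The same pattern held for genes of unrelated function. The transcriptional coactivator Wbp2 stood at 29.3, 51.6 and 49.6 CPM in the Fkbp5 knockdown against 88.3, 153 and 164 CPM in the control (−1.62, SE 0.09, adjusted p = 3.52e-05). Its level was higher at days 3 and 5 than at day 0 in both genotypes, and the knockdown stayed at 33.1%, 33.7% and 30.2% of the control throughout. The phospholipid scramblase Ano6 stood at 70.1, 85.4 and 81.0 CPM against 206, 202 and 218 CPM (−1.39, SE 0.09, adjusted p = 9.96e-05). Mapk14, the p38 alpha kinase that promotes myoblast differentiation, stood at 28.7, 35.2 and 35.8 CPM against 76.5, 75.5 and 66.4 CPM (−1.12, SE 0.11, adjusted p = 0.00157). The Golgi galactosyltransferase B4galt1 stood at 45.2, 61.5 and 53.3 CPM against 110, 122 and 128 CPM (−1.16, SE 0.10); it was not a member of the N-glycosylation list. Further genes of this kind were Arpc1a, a subunit of the actin-nucleating Arp2/3 complex (−1.12), the ubiquitin ligase subunit Rmnd5a (−1.39), the actin-binding Marcksl1 (−1.39), the deubiquitinase Usp12 (−0.97), the iron regulatory protein Ireb2 (−0.98), the nucleic acid-binding translin Tsn (−0.83) and the GTPase-activating protein Elmod2 (−1.27). Their adjusted p ran from 0.0015 (Arpc1a) to 0.0033 (Usp12). The 15 genes made up of Cdk6 and the 14 above were all called without any 1 of the 6 libraries, except that Cdk6 was missed without the Fkbp5 knockdown library of day 5 (adjusted p = 0.056).

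**Figure D1:**
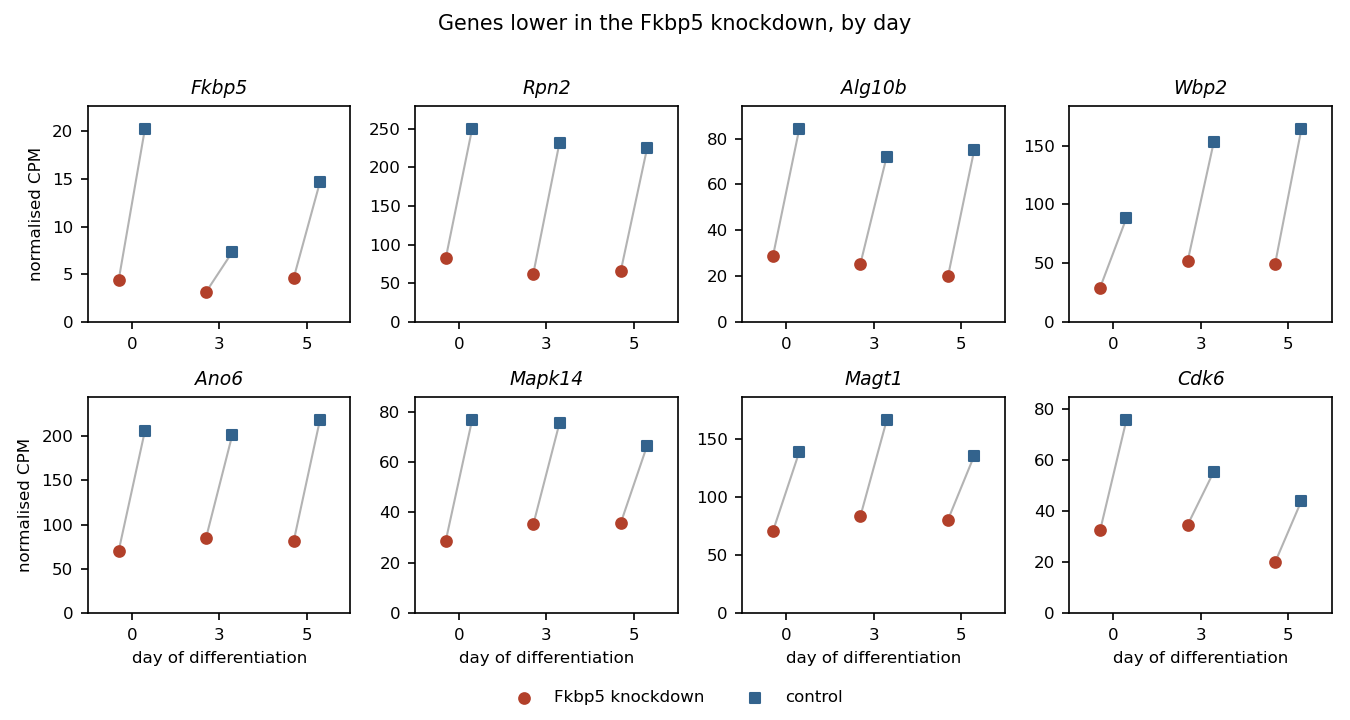
Normalised CPM (y axis, from 0) of 8 genes lower in the Fkbp5 knockdown, by day of differentiation (x axis), with 1 library per point and a line joining the libraries of a day; circles are the Fkbp5 knockdown and squares the control. Rpn2 lies at 62.5 to 82.6 CPM in the knockdown and 225 to 249 CPM in the control, and in each panel the knockdown lies below the control of its day.

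The Fkbp4 knockdown of the series, which received the same handling, differed from gene to gene in its relation to the control. Rpn2 stood at 271, 258 and 253 CPM and Wbp2 at 111, 186 and 177 CPM there, above the control at each day. Ano6 stood at 190.5, 200.1 and 197 CPM and B4galt1 at 84.3, 89.5 and 83.1 CPM there, below the control at each day. The Fkbp5 knockdown differed from the Fkbp4 knockdown by −1.87 in Rpn2 (adjusted p = 1.04e-05), by −1.84 in Wbp2 (7.35e-06), by −1.29 in Ano6 (0.000101) and by −0.67 in B4galt1 (0.00308), in a contrast that shares its Fkbp5 knockdown libraries with the comparison above and in which 13.4% of genes were called.

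Many of the genes that were lower carry a 7-base word, GTTCGTT, in the longest annotated 3′ UTR. The word led an earlier scan of these data, so its share here is a description with no test. It was searched on the strand of the mRNA in GENCODE release 21, and 52 of 177 protein-coding genes called lower held it (29.4%), against 0 of 78 called higher and 266 of 11218 genes tested (2.37%). Called lower genes had longer 3′ UTRs, with a median of 1982 bases, against 1207 bases over all tested and 1010 bases among those called higher. The 266 holders had a median log2 fold change of −0.28, with same-day medians of −0.36, −0.23 and −0.32 at days 0, 3 and 5, and the 10952 genes without the word had a median of 0.007. Of the 20 genes called lower with the smallest p, 10 held it. Of the 16 contractile, triad and endplate genes called lower, 1 held it (6.25%), the Z-disc protein Pdlim5, and the median 3′ UTR of these 16 was 308 bases. The share of holders thus lay above that of all genes tested and rests on 1 gene. The sites in Rpn2, Wbp2, Alg10b, Mapk14, Arpc1a and Pdlim5, printed 5′ to 3′ on the mRNA strand with the word in capitals and 10 bases on each side, are given as examples of the word in genes described above and below. They lie, on GRCm38, at chr2:157325828-157325854 (plus) in Rpn2, chr11:116078719-116078745 (minus) in Wbp2, chr15:90231688-90231714 and chr15:90232360-90232386 (plus) in Alg10b, chr17:28748302-28748328 (plus) in Mapk14, chr5:145108572-145108598 (plus) in Arpc1a and chr3:142241740-142241766 (minus) in Pdlim5.
Rpn2: ggagatgcctGTTCGTTaaaaagagaa
Wbp2: aattgctcttGTTCGTTcctggtccag
Alg10b, first site: tgaaagcattGTTCGTTatccattgct
Alg10b, second site: gttaattattGTTCGTTgttcacgaag
Mapk14: gaaaactgctGTTCGTTtgtatttgtg
Arpc1a: gacggcagtgGTTCGTTttgatttttc
Pdlim5: tttctttttgGTTCGTTttagattgag

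Without the genes that hold the word, a choice made after the data were seen, 189 genes were called and 112 of them were lower. The 125 genes called lower in the fit over all genes that did not hold the word included the muscle genes that follow, other than Pdlim5. When genes holding the word were left out of the edgeR fit, Atp2a1 (adjusted p = 0.0567), Hrc (0.0504), Mef2d (0.0535), Gbp4 (0.0591) and P4ha2 (0.0593) were missed among the genes named by rule. Beyond these, 4 collagens were called higher, against 5 with all genes, though 0 of the 19 collagens tested hold the word. The genes called lower were then 1 of the triad list and 3 of the myogenic factors, against 3 and 4 with all genes. In the N-glycosylation list 1 was called lower, against 3, since Rpn2 and Alg10b hold the word and were left out. The Z-disc list likewise went from 3 to 2 without the holder Pdlim5, and the G1 and S phase list from 2 to 1 without Cdk6. The guanylate-binding proteins went from 3 to 2.

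Part of the contractile gene lists was called lower in the Fkbp5 knockdown, and none of their genes was called higher. Of 18 thick filament genes tested, 5 were called lower and 0 higher, with a median log2 fold change of −0.63. Of 18 thin filament genes, 3 were lower and 0 higher (median −0.59), and of 18 Z-disc and titin genes 3 were lower and 0 higher (median −0.49). The background for a call in this direction was 1.46%. The same-day medians of the thick filament list were 0.00, −0.70 and −0.87 at days 0, 3 and 5, and those of the thin filament list were −0.04, −0.71 and −0.58. The Z-disc list differed already at day 0, with medians of −0.66, −0.41 and −0.41. At day 3, the knockdown was below the control in all 18 thick filament genes tested and in 17 of 18 thin filament genes, and at day 5 in 17 of 18 of each. The summed thick filament level was 5828 and 11310 CPM at days 3 and 5 in the knockdown, against 9453 and 15710 CPM in the control. In bulk libraries fewer differentiated cells and less of a transcript per cell cannot be told apart.

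Within the thick filament the difference was widest in the adult and slow myosins. Myh4, the adult fast IIb myosin heavy chain, stood at 0, 2.03 and 19.9 CPM at days 0, 3 and 5 in the Fkbp5 knockdown against 0.67, 8.99 and 232 CPM in control cells, a log2 fold change of −3.38 (SE 0.26, adjusted p = 0.000176). The value therefore rests mainly on the day 5 pair, with 91 reads in the knockdown and 966 in the control. The slow myosin Myh7 stood at 0, 3.83 and 8.95 CPM against 1.11, 9.94 and 39.8 CPM (−1.95, SE 0.29, adjusted p = 0.0104). Perinatal Myh8 stood at 0.26, 5.18 and 14.0 CPM against 0.22, 9.71 and 74.3 CPM (−1.89, adjusted p = 0.0139). The embryonic myosin Myh3, the main isoform by reads in these libraries, stood at 9.75, 885 and 1799 CPM against 13.8, 1381 and 3237 CPM, and its difference of −0.67 (SE 0.24, adjusted p = 0.198) did not pass. The remaining thick filament genes called lower were the myosin-binding protein Mybpc1 (−1.69, adjusted p = 0.00748) and the myosin chaperone Unc45b (−1.03, adjusted p = 0.0155). Myosin heavy chains are near copies of one another and how reads shared by several of them were counted is not stated, so the split between isoforms is uncertain.

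In the thin filament, cardiac actin Actc1, the actin isoform of early myotubes, stood at 6.93, 330 and 322 CPM in the Fkbp5 knockdown against 7.10, 934 and 603 CPM in the control (−1.02, SE 0.21, adjusted p = 0.0326). Fast troponin T Tnnt3 stood at 5.90, 217 and 545 CPM against 7.54, 458 and 955 CPM (−0.84, SE 0.18, adjusted p = 0.039). Both were alike at day 0 and lower in the knockdown at days 3 and 5. Leiomodin 3, Lmod3, which nucleates thin filaments, was the third (−0.67, adjusted p = 0.0271). Skeletal actin Acta1 stood at 28.2, 1444 and 3448 CPM against 35.3, 2503 and 4900 CPM, and did not pass (−0.56, adjusted p = 0.276). In the Z-disc the actin cross-linker Actn3 stood at 27.5, 205 and 253 CPM against 62.8, 310 and 399 CPM (−0.76, SE 0.11, adjusted p = 0.0104). Pdlim5, which anchors kinases at the Z-disc, stood at 53.9, 99.7 and 133 CPM against 124, 210 and 235 CPM (−1.01, SE 0.10, adjusted p = 0.00157). The calcineurin-binding Myoz2 was the other Z-disc gene called lower (−1.08, adjusted p = 0.0288).

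**Figure D2:**
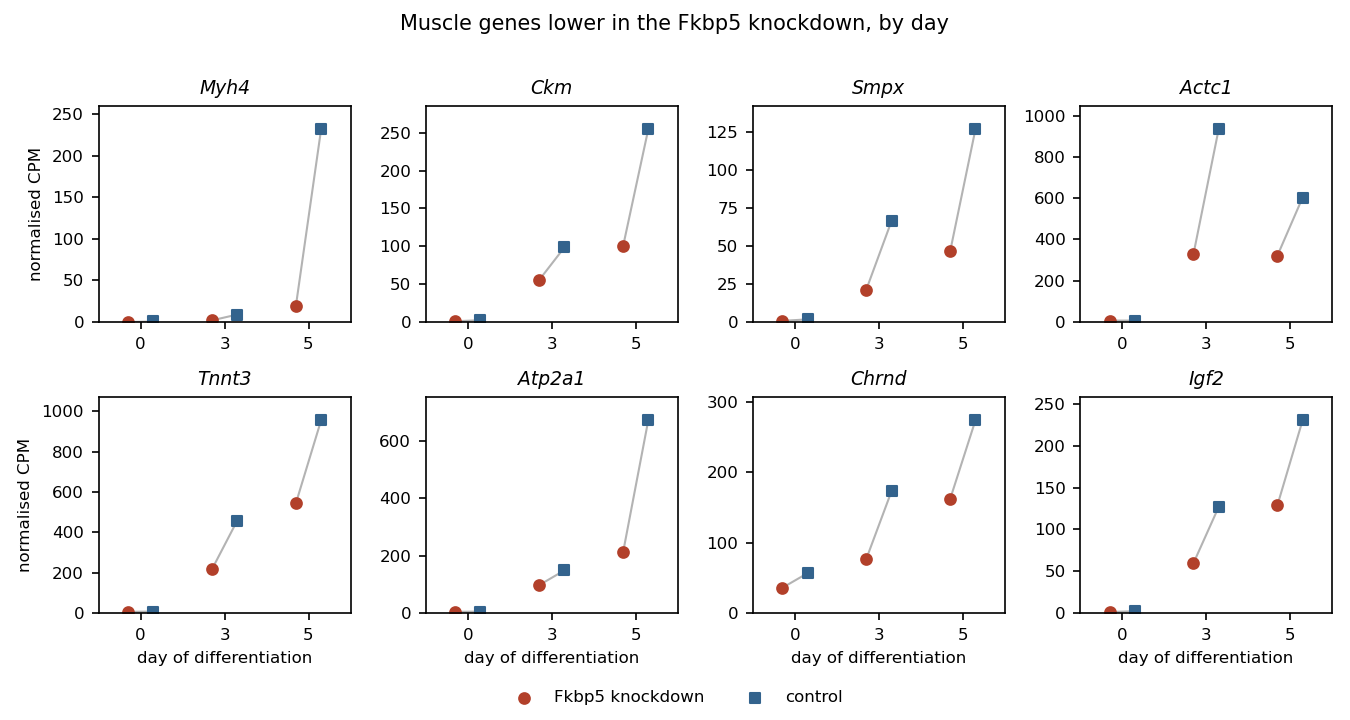
Normalised CPM (y axis, from 0) of 8 muscle genes by day of differentiation (x axis), with 1 library per point and a line joining the libraries of a day; circles are the Fkbp5 knockdown and squares the control. At day 5 Myh4 lies at 19.9 CPM in the knockdown and 232 CPM in the control, and at day 0 all but Chrnd lie near the axis in both genotypes.

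Of 17 tested genes of calcium release and the triad, 3 were called lower (background 1.46%) and 0 higher (median −0.32), and of 10 of the acetylcholine receptor and endplate 2 were called lower and 0 higher (median −0.21). At day 3 the knockdown was below the control in 14 of the 17 and 7 of the 10 genes, and at day 5 in 16 and 7. The calcium pump of the fast sarcoplasmic reticulum, Atp2a1, stood at 4.36, 97.4 and 212 CPM in the Fkbp5 knockdown against 5.10, 149 and 672 CPM in the control (−1.03, SE 0.23, adjusted p = 0.0458), a call that DESeq2 did not make (−0.91, adjusted p = 0.209). The junctophilin Jph1, which ties the reticulum to the T-tubule, stood at 7.19, 37.7 and 48.3 CPM against 12.2, 59.9 and 76.5 CPM (−0.67, SE 0.12, adjusted p = 0.0223). The calcium-binding Hrc was the third (−0.70, adjusted p = 0.0411). The ryanodine receptor Ryr1 stood at 8.21, 233 and 266 CPM against 10.7, 179 and 425 CPM, with the knockdown above the control at day 3 and below it at day 5. The acetylcholine receptor subunits Chrnd, with 35.9, 76.9 and 162 CPM against 56.6, 173 and 274 CPM (−0.85, SE 0.12, adjusted p = 0.01), and Chrng (−0.62, adjusted p = 0.0249) were lower. Chrna1, with 436, 920 and 1060 CPM against 455, 1020 and 1240 CPM, did not pass (−0.13).

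Among other muscle products, the costameric protein Smpx stood at 0.77, 21.4 and 47.0 CPM in the Fkbp5 knockdown against 1.77, 66.5 and 127 CPM in the control (−1.51, SE 0.13, adjusted p = 0.00039). The junctional protein Pgm5 (aciculin) stood at 0.51, 34.5 and 70.3 CPM against 2.22, 76.7 and 198 CPM (−1.34, SE 0.15, adjusted p = 0.00195). Muscle creatine kinase Ckm, which regenerates ATP in the fibre, stood at 1.03, 55.5 and 100.2 CPM against 2.44, 98.5 and 255 CPM (−1.10, SE 0.13, adjusted p = 0.00429), and was the 1 gene called of 19 in muscle energy metabolism. The caveolin of muscle, Cav3, had no read at day 0 in either genotype and stood at 3.38 and 15.9 CPM at days 3 and 5 against 16.8 and 42.2 CPM (−1.69, SE 0.25, adjusted p = 0.01). It was the 1 called lower of 22 genes of myoblast fusion and adhesion, and the syntrophin Sntb1 (−0.83, adjusted p = 0.0128) was the 1 called lower of 13 of the dystrophin complex. The background for a call in this direction was 1.46%, and lists with 1 call say little beyond that gene. The growth factor Igf2, an autocrine driver of myoblast differentiation, stood at 1.28, 59.7 and 129 CPM against 2.22, 127 and 231 CPM (−0.95, SE 0.11, adjusted p = 0.00326). The neuregulin receptor Erbb3 stood at 5.13, 30.9 and 38.4 CPM against 9.32, 64.1 and 89.2 CPM (−1.09, SE 0.12, adjusted p = 0.00183).

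The muscle calls depended on single libraries, as did calls over all genes. Of all 272 called genes, 35 stayed called without the Fkbp5 knockdown library of day 5, 48 without the control library of day 3 and 46 without that of day 5. The number over all genes was 164, 148 and 92 without the knockdown library of day 0, that of day 3 or the control library of day 0. Of the 16 contractile, triad and endplate genes called, 2 (Pdlim5 and Chrnd) stayed called without the Fkbp5 knockdown library of day 5, 5 without the control library of day 3 and 3 without the control library of day 5; the number was 14, 11 and 13 when the knockdown library of day 0, the knockdown library of day 3 or the control library of day 0 was left out. All kept their sign. Of the 7 other muscle genes above, Smpx, Erbb3 and Igf2 were called without any 1 of the 6 libraries. Cav3 was missed without the control library of day 3 (adjusted p = 0.0767) or day 5 (0.075), Sntb1 without these (0.0714 and 0.0517) and without the knockdown library of day 5 (0.101), Pgm5 without the last alone (0.0532), and Ckm without the knockdown (0.0532) or the control (0.0539) library of day 5.

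Of 17 tested transcription factors and coregulators of the muscle programme, 4 were called lower (background 1.46%) and 0 higher, with a median of −0.20 and same-day medians of −0.24, −0.20 and −0.24. The MEF2 factor Mef2d stood at 60.3, 191 and 199 CPM in the Fkbp5 knockdown against 87.0, 240 and 264 CPM in the control (−0.40, SE 0.09, adjusted p = 0.0458). Tead4, a MyoD target that binds MCAT elements, stood at 11.5, 38.8 and 40.6 CPM against 17.3, 61.3 and 79.1 CPM (−0.75, SE 0.12, adjusted p = 0.014). The phosphatase coactivator Eya4 (−0.65, adjusted p = 0.039; 0.187 with DESeq2) and the RNA-binding Rbm24, which controls muscle splicing (−0.93, adjusted p = 0.0298), were the others. Myod1 stood at 66.2, 111 and 104 CPM against 69.9, 121 and 106 CPM and did not pass (−0.07, SE 0.09, adjusted p = 0.78). Myogenin, Myog, stood at 11, 151 and 237 CPM against 14.9, 358 and 276 CPM (−0.63, SE 0.25, adjusted p = 0.252), so that its widest gap was at day 3. Mef2c had its widest gap at day 5, with 7.70, 52.1 and 74.3 CPM against 5.99, 66.3 and 203 CPM (−0.74, SE 0.25, adjusted p = 0.172). Without the knockdown library of day 5, the control library of day 3 or the control library of day 5, 0 of the 4 factors was called, with adjusted p from 0.0807 to 0.233. The number was 2, 1 and 2 without the knockdown library of day 0, the knockdown library of day 3 or the control library of day 0. Mef2d and Eya4 were missed without any 1 of the 9 libraries of the series, and with the 6 libraries alone.

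In the cell cycle, the kinase named in the series title showed no called difference in its mRNA. Cdk4 stood at 722, 314 and 300 CPM at days 0, 3 and 5 in the Fkbp5 knockdown against 663, 378 and 248 CPM in the control (0.06, SE 0.12, adjusted p = 0.858). Cdk6, the other kinase of D-type cyclins, stood at 32.3, 34.5 and 19.9 CPM against 75.4, 55.4 and 43.9 CPM (−0.99, SE 0.14, adjusted p = 0.00836), and its 3′ UTR holds the word GTTCGTT at 2 places. The activator E2f2 stood at 12.3, 47.6 and 28.4 CPM against 30.6, 78.1 and 51.3 CPM (−0.90, SE 0.13, adjusted p = 0.00875). Both were lower in every pair, and they were the 2 called lower of 27 G1 and S phase regulators (background 1.46%), with 0 called higher. E2f2 was missed without the knockdown library of day 5 (adjusted p = 0.0641), as was Cdk6 (0.056). Cyclin D1, Ccnd1, stood at 263, 103 and 67.5 CPM against 256, 64.1 and 46.5 CPM (0.42, SE 0.13, adjusted p = 0.135). Cyclin D3, Ccnd3, stood at 71.3, 378 and 320 CPM against 66.8, 319 and 290 CPM (0.18, adjusted p = 0.363). Rb1 stood at 22.6, 102 and 87.8 CPM against 33.1, 121 and 112 CPM (−0.34, adjusted p = 0.141). The CDK inhibitor Cdkn1a stood at 181, 909 and 874 CPM against 184, 1200.0 and 1237 CPM (−0.29, SE 0.12, adjusted p = 0.288).

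The median change of 44 DNA replication genes between days 0 and 5 was −2.03 in the Fkbp5 knockdown and −2.30 in the control, and that of 45 mitosis genes was −2.51 and −2.39. In neither list was a gene called by edgeR, DESeq2 or limma voom between genotypes, with 5 replication genes and 1 mitosis gene at an unadjusted p under 0.05 in edgeR, all of them lower. Over all genes 1985 of 12498 tested were at that unadjusted p in either direction, a larger share than in either list. The mitosis medians by day were −0.13, 0.48 and −0.23, with the knockdown below the control in 28, 2 and 37 of the 45 genes.

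**Figure D3:**
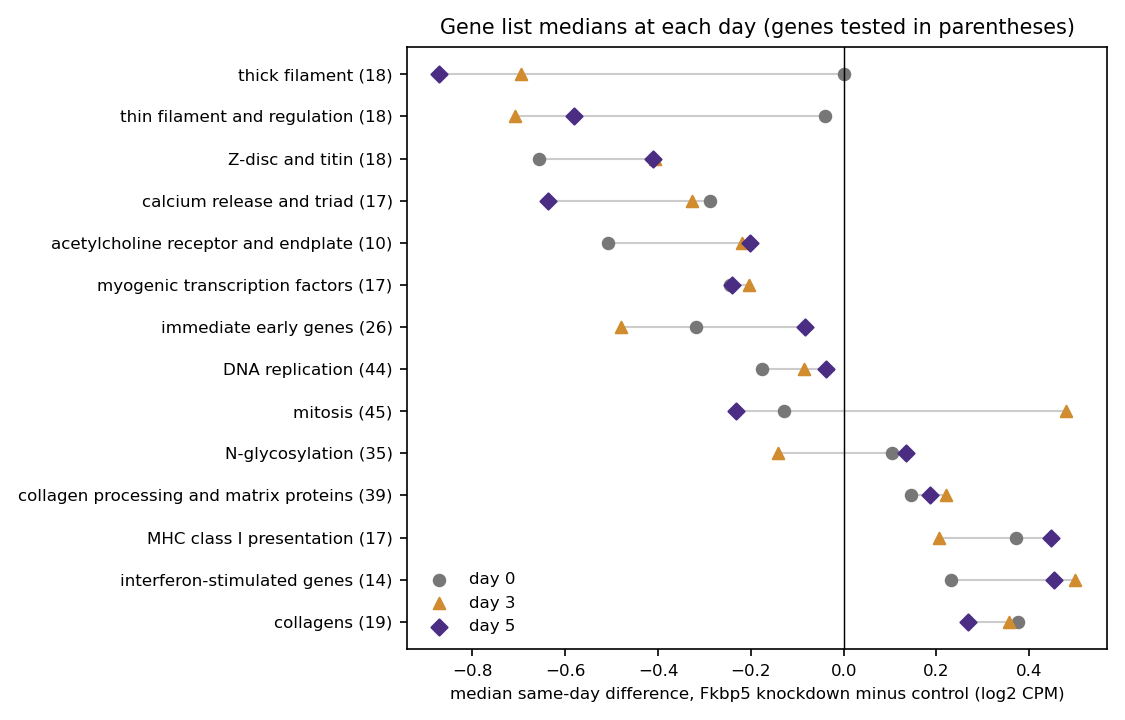
Median same-day difference, Fkbp5 knockdown minus control, in log2 CPM (x axis) for 14 gene lists (y axis, with the number of genes tested); each symbol is the median of a list at 1 day, from 1 knockdown and 1 control library. The thick filament list moves between 0.00 at day 0 and −0.87 at day 5, mitosis changes sign between days, and MHC class I and collagen lists lie above 0 at each day.

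Part of the antigen presentation pathway was called higher in the Fkbp5 knockdown. MHC class I molecules display peptides that the Tap1 and Tap2 transporter brings into the endoplasmic reticulum. Of 17 genes of the pathway tested, 4 were called higher (background 0.712%) and 0 lower, with a median of 0.31 and same-day medians of 0.37, 0.21 and 0.45. The knockdown was below the control in 3, 4 and 1 of the 17 at days 0, 3 and 5. Tap2 stood at 10.8, 24.1 and 20.5 CPM at days 0, 3 and 5 in the knockdown, against 4.88, 9.47 and 8.15 CPM in the control (1.30, SE 0.17, adjusted p = 0.00591), that is at 221%, 255% and 252% of the control. H2-D1 stood at 67.5, 129 and 104 CPM against 43.9, 85.9 and 63.0 CPM (0.65, SE 0.10, adjusted p = 0.0104), and H2-K1 at 87.0, 184 and 129 CPM against 57.0, 118 and 88.2 CPM (0.61, SE 0.12, adjusted p = 0.0274). The non-classical H2-T22 stood at 35.9, 41.0 and 31.5 CPM against 28.8, 23.7 and 18.0 CPM (0.65, adjusted p = 0.0381; 0.0838 with DESeq2). The light chain B2m stood at 363, 578 and 525 CPM against 276, 512 and 354 CPM without passing (0.40, adjusted p = 0.0885). In all, 10 of 15 pathway genes of at least 5 CPM were higher in all 3 pairs, against 16.4% of all such genes. H2 genes are near copies of one another, so their reads are shared in part. Of the 4, 1 (Tap2) stayed called without the knockdown library of day 5 and 1 (Tap2) without the control library of day 5, and 0 without the control library of day 3 (adjusted p 0.0531 to 0.2). The number was 3, 2 and 2 without the knockdown library of day 0, the knockdown library of day 3 or the control library of day 0.

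Interferon-stimulated genes did not pass as single genes. Of 14 tested, 0 were called by edgeR or DESeq2 and 1 by limma voom. At an unadjusted p under 0.05 in edgeR 3 were higher and 0 lower, against 1985 of all 12498 genes tested in either direction. The list median was 0.37, and 8 of 13 genes of at least 5 CPM were higher in all 3 pairs, against 16.4% of all such genes. The tetherin gene Bst2 stood at 7.19, 14.4 and 14.6 CPM in the knockdown, against 5.55, 5.44 and 7.43 CPM in the control (0.95, adjusted p = 0.07). In contrast with these lists, 3 of 6 tested guanylate-binding proteins, GTPases induced by interferon, were called lower (background 1.46%). Gbp8 stood at 0, 3.61 and 9.39 CPM in the knockdown, against 0.89, 12.3 and 34.3 CPM in the control (−1.86, SE 0.27, adjusted p = 0.00875). Gbp9 stood at 0, 4.28 and 8.08 CPM against 0.44, 7.81 and 37.2 CPM (−1.71, SE 0.32, adjusted p = 0.0271). Gbp4 stood at 0, 5.64 and 6.33 CPM against 0.22, 11.8 and 27.3 CPM (−1.62, adjusted p = 0.0473). These genes resemble one another and overlap on the minus strand of chromosome 5. Gbp8 spans 105014150 to 105139540, Gbp9 105077630 to 105139539 and Gbp4 105115767 to 105139586. How reads in the overlap were counted is not stated, so the 3 calls may not be separate. By edgeR 0 of the 3 was called without the knockdown library of day 5 (adjusted p 0.125 to 0.414), the control library of day 3 (0.0643 to 0.217) or that of day 5 (0.0984 to 0.319).

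Some collagens and collagen-modifying enzymes were called higher. Of 19 collagen genes tested, 5 were called higher (background 0.712%) and 1 lower (background 1.46%), with a median of 0.43 and same-day medians of 0.38, 0.36 and 0.27, and 12 of 17 of at least 5 CPM were higher in all 3 pairs, against 16.4% of all such genes. The knockdown was below the control in 3, 3 and 5 of the 19 genes at days 0, 3 and 5. Col1a1, a chain of fibrillar type I collagen, stood at 373, 1107 and 1120.0 CPM in the Fkbp5 knockdown against 165, 574 and 869 CPM in the control (0.85, SE 0.16, adjusted p = 0.0288). Its difference was largest at day 0 and smallest at day 5. The basement membrane chain Col4a2 showed the opposite order, with 127, 227 and 240.5 CPM against 115, 121 and 118 CPM (0.73, SE 0.15, adjusted p = 0.0374). Col4a5 (0.60, adjusted p = 0.0387), Col18a1 (0.53, adjusted p = 0.0444) and Col27a1, with 1.8, 16.9 and 22.5 CPM against 1.11, 7.10 and 5.75 CPM (1.5, SE 0.26, adjusted p = 0.0178), were the others, and the transmembrane collagen Col23a1 was lower (−2.20, adjusted p = 0.032), while DESeq2 called 0 collagens lower. Of 39 genes of collagen processing and matrix proteins, the prolyl 4-hydroxylase subunits P4ha1, with 212, 246 and 288 CPM against 129, 192 and 194 CPM (0.57, SE 0.11, adjusted p = 0.0293), and P4ha2, with 94.7, 114 and 140 CPM against 71.7, 85.7 and 85.6 CPM (0.53, SE 0.12, adjusted p = 0.0458), were called higher and 0 lower. The background for a call in this direction was 0.712%. The list median was 0.23, and 19 of 38 genes of at least 5 CPM were higher in all 3 pairs, against 16.4% of all such genes. Of the 7 collagen and hydroxylase genes called higher, 1 (Col1a1) stayed called without the knockdown library of day 5 and 0 when the day 3 or the day 5 control was left out, with adjusted p from 0.0806 to 0.281 in those last 2 fits. The number was 2, 4 and 2 without the knockdown library of day 0, the knockdown library of day 3 or the control library of day 0.

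Of the progenitor list, the surface proteins Cd34 and Sdc3 were called higher. The sialomucin Cd34, found on quiescent satellite cells and also on fibroblasts, stood at 74.9, 110 and 135 CPM in the Fkbp5 knockdown against 28.4, 67.2 and 67.1 CPM in the control (1.03, SE 0.14, adjusted p = 0.00748). The proteoglycan syndecan 3, Sdc3, stood at 36.4, 74.2 and 69.0 CPM against 24.6, 27.2 and 25.9 CPM (1.19, SE 0.17, adjusted p = 0.00843), with the knockdown above the control in each pair and most of all at days 3 and 5. These were the 2 called higher of 15 tested genes of the progenitor state (background 0.712%), and 0 were called lower. The rest of the list did not share their direction. Its median was 0.11, with 4 genes higher and 4 lower in all 3 pairs. At an unadjusted p under 0.05 in edgeR 3 were higher and 3 lower, against 1985 of all 12498 genes tested in either direction. The knockdown was below the control in 9, 7 and 7 of the 15 at days 0, 3 and 5. Sdc3 was missed without the knockdown library of day 5 (adjusted p = 0.064) or the control library of day 3 (0.0664) or day 5 (0.0588), and Cd34 without the last (0.0539). Of the 7 fibroblast markers tested, Cd34 was the 1 called, and the summed level of the list was 416, 1036 and 1358 CPM in the knockdown, against 302, 938 and 835 CPM in the control. Its largest member Ly6a stood at 321, 857 and 1105 CPM against 254, 807 and 653 CPM and did not pass (0.41, adjusted p = 0.153), and the part of such cells in the matrix and Cd34 differences was not tested.

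Other genes called higher, in order of their p, were the ectonucleotidase relative Enpp5 (1.06, adjusted p = 0.01), the leukotriene pathway protein Alox5ap (1.24), the tetraspanin partner Igsf8 (0.61), the microtubule regulator Stmn2 (0.92), Ifi27l2a (1.97), the reductase Dhrs7 (0.67), the myelin protein Pmp22 (0.97) and thrombomodulin, Thbd (1.03). Pmp22 stood at 97.8, 227 and 225 CPM in the Fkbp5 knockdown against 61.7, 100.1 and 115 CPM in the control, and Stmn2 at 250.5, 99.0 and 126 CPM against 131, 47.8 and 74.6 CPM. The mitophagy receptor Bnip3 stood at 252, 232 and 212 CPM against 146, 159 and 116 CPM (0.76, SE 0.15, adjusted p = 0.0281), and the mitochondrial trafficking protein Mgarp at 15.1, 16.0 and 15.9 CPM against 6.88, 5.44 and 5.03 CPM (1.46, SE 0.26, adjusted p = 0.0223). The plasma glutathione peroxidase Gpx3 stood at 18.0, 19.8 and 39.1 CPM against 10.9, 10.9 and 13.9 CPM (1.07, adjusted p = 0.0248). None of these 11 genes was called without the control library of day 3 or the knockdown library of day 5, and each kept its sign.

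**Figure D4:**
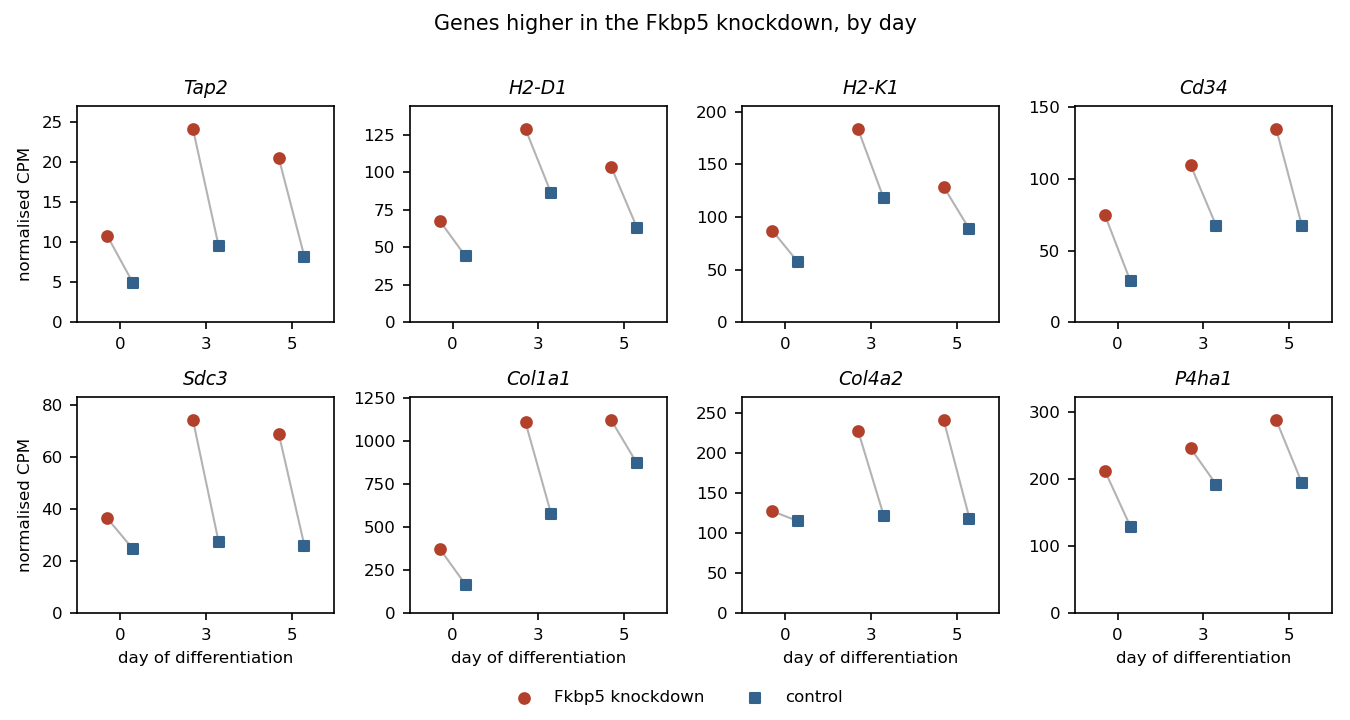
Normalised CPM (y axis, from 0) of 8 genes higher in the Fkbp5 knockdown, by day of differentiation (x axis), with 1 library per point and a line joining the libraries of a day; circles are the Fkbp5 knockdown and squares the control. Tap2 lies at 10.8, 24.1 and 20.5 CPM in the knockdown, against 4.88, 9.47 and 8.15 CPM in the control, and the knockdown lies above the control of its day in each panel.

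Lower genes outside these groups included the secreted Wnt modulator Dkk3, with 3.34, 2.25 and 2.62 CPM in the Fkbp5 knockdown against 10.9, 12.5 and 11.7 CPM in the control (−2.11, SE 0.35, adjusted p = 0.0162), and the ligand Wnt10a (−0.94, adjusted p = 0.0369; 0.121 with DESeq2), the 2 called lower of 14 Wnt ligands and modulators. Errfi1, an inhibitor of the EGF receptor, was the 1 called lower of 20 genes of the glucocorticoid receptor and its targets, with 104, 32.7 and 23.4 CPM against 172, 63.2 and 36.9 CPM (−0.77, SE 0.12, adjusted p = 0.013). The background for a call lower, in this list and the Wnt list, was 1.46%. FKBP51 is known as a brake on that receptor, and the receptor Nr3c1 (0.09, adjusted p = 0.755) and its target Tsc22d3, at 69.8, 135 and 126 CPM against 55.0, 145 and 131 CPM (0.07, adjusted p = 0.866), did not pass. FKBP51 is also known as a scaffold for the phosphatase PHLPP at Akt. Of 27 genes of the Akt, Phlpp and FoxO axis 0 were called by edgeR, DESeq2 or limma voom, with 1 higher and 4 lower at an unadjusted p under 0.05 in edgeR, and Akt1, Phlpp1 and Foxo1 differed by −0.13, 0.0096 and −0.33. Of 29 Hsp90 and co-chaperone genes 0 were called by any of the 3 tools, with 1 higher and 2 lower at that unadjusted p. Over all genes, 1985 of the 12498 tested were at it in either direction. Dkk3, Wnt10a and Errfi1 were missed without the knockdown library of day 5 or the control library of day 3 or day 5, with adjusted p from 0.0524 to 0.221.

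Immediate early genes, transcribed within minutes of a stimulus, had a median of −0.305, with same-day medians of −0.32, −0.48 and −0.08. Of 26 tested 0 were called by edgeR, DESeq2 or limma voom, 11 were lower and 1 higher at an unadjusted p under 0.05 in edgeR, and 12 of 24 of at least 5 CPM were lower in all 3 pairs, against 20% of all such genes. At that unadjusted p were 1985 of all 12498 genes tested, in either direction. Egr1 stood at 63.9, 96.5 and 159 CPM in the knockdown, against 83.4, 334 and 174 CPM in the control (−0.79, adjusted p = 0.159). Transcripts of the mitochondrial genome were called higher in 4 of 13 cases (background 0.712%) and lower in 0. The genes mt-Nd2 (0.64, adjusted p = 0.0235) and mt-Cytb (0.59, adjusted p = 0.0246) were higher in all 3 pairs, while mt-Nd4l stood at 2.82, 3.16 and 989 CPM against 1.11, 2.13 and 4.08 CPM, so that the knockdown library of day 5 alone gave its difference, as it did for mt-Nd3. Without that library 0 of the 13 was called, and 0 when the day 5 control was left out.

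The difference at day 0 was set against that at days 3 and 5 in 2 ways. Between libraries of the same day, 97, 127 and 156 of the 10887 genes of at least 5 CPM were 2-fold or more higher in the Fkbp5 knockdown at days 0, 3 and 5, and 146, 148 and 143 were 2-fold or more lower, with 1 library per group and no test. Among the 250 called protein-coding nuclear genes of at least 5 CPM, the 175 lower ones had a median of −0.715 at day 0 and −0.82 over days 3 and 5, and the 75 higher ones 0.58 and 0.71. The 16 contractile, triad and endplate genes among them had a median of −0.52 at day 0 and −1.01 over days 3 and 5, and the 3 N-glycosylation genes −1.53 and −1.69. A test of the change between day 0 and the late days called 4 of 12498 genes (0.0320%), with 573 at an unadjusted p under 0.05 in edgeR, and none of the 4 was a muscle or glycosylation gene. Muscle genes had few reads at day 0, so their day 0 differences are imprecise. The prior count of 2, added before taking logs, also draws differences on few reads toward 0. Its part in the step from −0.52 to −1.01 was not tested. The test of the change had 2 residual degrees of freedom.

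**Figure D5:**
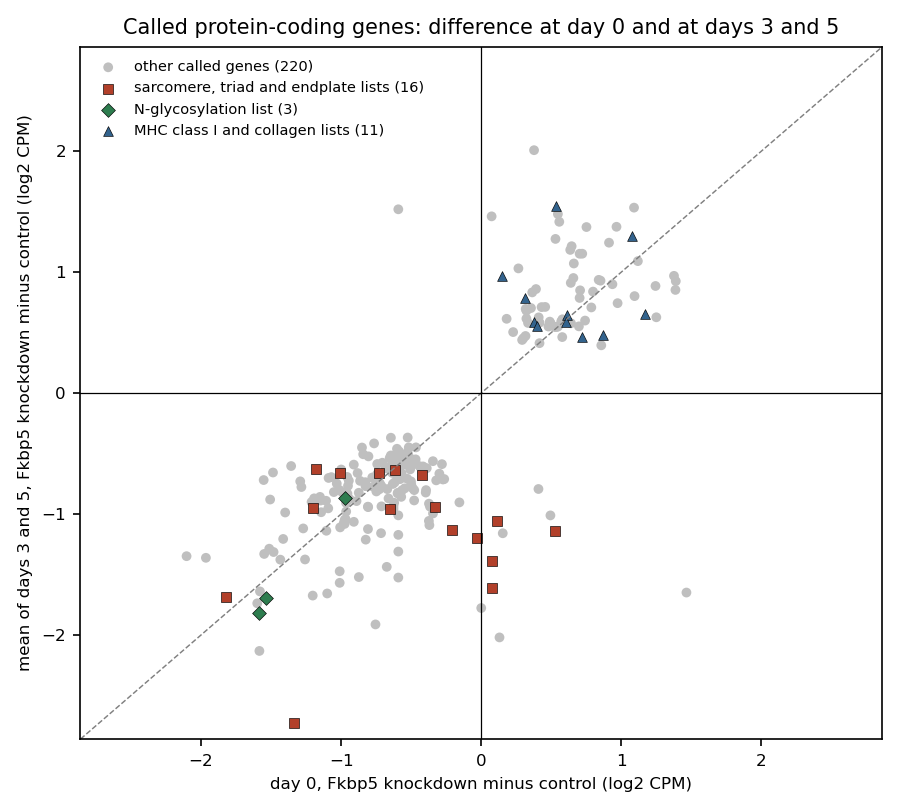
Difference between the Fkbp5 knockdown and the control in log2 CPM at day 0 (x axis) and averaged over days 3 and 5 (y axis) for 250 called protein-coding nuclear genes of at least 5 CPM; each point is a gene, the dashed line marks equal differences, and symbols mark genes of the lists named. Squares (16 contractile, triad and endplate genes) have medians of −0.52 at day 0 and −1.01 later, and diamonds (3 N-glycosylation genes) have −1.53 and −1.69. Day 0 values on few reads are drawn toward 0 by the prior count of 2.

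After mt-Nd3 (6.99; adjusted p 0.131 with DESeq2) and mt-Nd4l (6.48; 0.190 with DESeq2), the 3 largest differences called were in processed pseudogenes. Gm15464 stood at 0.26, 0.45 and 24.0 CPM in the Fkbp5 knockdown against 292, 121 and 159 CPM in the control (−4.67, SE 0.66, adjusted p = 0.00875). Rpl28-ps3 stood at 0.51, 0.90 and 1.53 CPM against 29.95, 9.94 and 16.5 CPM (−4.22, adjusted p = 0.0271; 0.109 with limma voom). Gm15483 stood at 41.6, 6.76 and 14.6 CPM against 0.89, 2.13 and 0.72 CPM (3.91, adjusted p = 0.0132; 0.0511 with DESeq2). Such copies share nearly all of their sequence with a parent gene, and how reads that align to several places were counted is not stated, so these values are uncertain. Gm15464 was missed without the control library of day 3. With protein-coding nuclear genes alone, a choice made after the data were seen, 404 genes were called, of which 256 were among the 272.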

How the data were processed

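PolyA RNA of C2C12 cells was sequenced as 9 libraries, for which the authors deposited a raw count of reads for each Ensembl gene, not normalised. Per the submitters' processing notes, CASAVA 1.8, HISAT2 2.0.2, Subread and featureCounts 1.4.6 were used with build mm10; the annotation, strand setting and treatment of multiply aligned reads are not given in the sources used here. Of 47728 gene identifiers 47309 matched GENCODE mouse release 21 (GRCm38), which gave symbols, positions and 3′ UTRs. Library totals ranged from 3932372 to 4863068 over the 6 libraries compared.

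Counts were analysed with edgeR 4.0.16 in R 4.3.3. Genes passed filterByExpr by genotype (12498), libraries were scaled by TMM (factors 0.941 to 1.038), and the quasi-likelihood fit had genotype and day as terms, applied to all 9 libraries. This left 4 residual degrees of freedom, and the biological coefficient of variation was 0.125. The day term pairs the libraries of a day. Tests were two-sided and adjusted by Benjamini and Hochberg over all genes tested. With no stated separate cultures, p values measure the spread between these libraries, days included. A change between day 0 and the late days was tested as a genotype-by-late interaction (2 residual degrees of freedom). Standard errors came from the log2 fold change over the root of the F statistic. Same-day differences used log2 CPM with a prior count of 2, and intervals are exact conditional binomial intervals (95%) that cover counting error only. The procedure was run on simulated counts with known changes. All genes there had the same coefficient of variation, so the run does not cover genes of wider spread. Alternatives used DESeq2 1.42.0 and limma 3.58.1.

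The genes, lists and word were chosen with earlier results of these data known. Genes were named by rule: a fixed set around Fkbp5, Cdk4 and myogenesis, the 12 largest called differences per direction with the same sign in all pairs, up to 4 called members per list, the interaction calls and the 5 largest day 0 differences per direction. The 20 lower and 12 higher genes of smallest p, and list members named beyond 4 or as not called, were chosen after their values were seen. Further lists with no gene called were CDK inhibitors (5 tested, median −0.05), p53 targets (24, 0.06), the unfolded protein and integrated stress response (31, −0.02), the cholesterol synthesis genes (25, −0.13), Notch pathway (14, −0.07), TGF-beta and YAP targets (22, −0.09) and smooth muscle markers (5, −0.36), where edgeR gave 2, 6, 2, 2, 1, 4 and 0 genes at an unadjusted p under 0.05 and DESeq2 and limma voom called 0. Over all 12498 genes tested, 1985 were at that unadjusted p. Of 20 antioxidant genes Gpx3, of 20 autophagy genes Bnip3 and of 14 insulin-like growth factor genes Igf2 was the 1 called, against 2.18% of all genes tested.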

Additional observations from a re-analysis of the deposited data

Results flagged for a closer look

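The change of the Fkbp5 knockdown difference between day 0 and days 3 and 5 was called in 4 of 12498 genes by edgeR (0.0320%; adjusted p = 0.0208 each), and 3 of the 4 are processed pseudogenes. The fourth, the cyclophilin Ppia, has many processed copies. Ppia (log2 change −4.58) stood at 1409, 121 and 98.5 CPM at days 0, 3 and 5 in the Fkbp5 knockdown, against 110, 241 and 165 CPM in the control. Rpl31-ps14 (−7.39) stood at 128, 97.6 and 89.8 CPM in the knockdown, against 0.67, 88.1 and 76.9 CPM in the control, so that the control library of day 0 stands apart. Rps27a-ps2 (7.12) stood at 58.8, 30.2 and 0.66 CPM against 215, 0.47 and 0.24 CPM, and Gm13622 (9.58) at 0.51, 10.1 and 5.46 CPM against 7.99, 0.24 and 0 CPM. How reads that align to several copies were counted is not stated, and its part in these values was not tested.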

How the results depend on the processing

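The main count of 272 called genes (89 higher, 183 lower) was 242 with DESeq2, of which 203 were among the 272, and 321 with limma voom (269 shared). Of the genes named by rule, DESeq2 did not call Atp2a1, Eya4, H2-T22, Wnt10a, Diras2, 1500015O10Rik, Gm15483, Gm17786, mt-Nd3 and mt-Nd4l, and limma voom did not call Rpl28-ps3, mt-Nd3 and Nyap1. Col23a1, named beyond the rule, was not called by DESeq2 either. With the 6 libraries alone 218 genes were called, of which 198 were among the 272. Among the named genes missed there were Mef2d, Eya4, Hrc, H2-T22, Col4a2, Col4a5, Wnt10a, mt-Nd2 and mt-Cytb. The count was 866 with no filter on low counts (367 higher, 499 lower). It was 3 with no day term (0 higher, 3 lower, with 367 at an unadjusted p under 0.05 in edgeR). Leaving out a day gave 128 without day 0 (34 higher, 94 lower), 41 without day 3 (9 and 32) and 36 without day 5 (8 and 28). Leaving out 1 library gave 40 to 296 called genes, 5 to 95 higher and 33 to 201 lower, with the fewest without the Fkbp5 knockdown library of day 5 and the most without the Fkbp4 knockdown library of day 0. With protein-coding nuclear genes alone 145 were higher, and without holders of the UTR word 112 were lower; both were chosen after the data were seen. Each called gene kept its direction in every setting that tested it. The settings share libraries with the fit that chose these genes, so a kept direction was likely from the start and is no separate support. Fkbp5 ranged over −1.93 to −1.45 without 1 library, and was missed with no day term (−1.78), without day 0 (−1.47, adjusted p = 0.0533) and without day 5 (−1.75, adjusted p = 0.0934). The 4 late-minus-day-0 calls became 45 with the 6 libraries alone and 7 to 35 without 1 library. Genes that were not called changed sign: Rps27a-ps2 (0.95 with DESeq2, −1.738 to 5.281 without 1 library), Phlpp1 (−0.005 with no filter, −0.066 without day 0, −0.077 to 0.096), Ppia (−0.86 without day 0, −1.10 to 2.40), Gm10269 (−0.43 without day 0, −0.18 to 1.47), Tsc22d3 (−0.073 without day 0, −0.090 to 0.208), Gm12138 (0.070 without day 3, −2.109 to 0.048), Nr3c1 (−0.021 without day 3, −0.034 to 0.168), Gm13622 (−0.83 without day 3, −0.25 without day 5, −0.736 to 5.777), Cdk4 (−0.044 without day 5, −0.047 to 0.190), Rbmxl1 (−1.377 to 0.085) and Fkbp4 (−0.017 to 0.102). The causes were not tested. No paired analysis was possible beyond the day term, because replicate numbers name days and each genotype has 1 library a day. Of the genes named, Rpn2, Ano6 and Alg10b kept their call throughout. Since 3 counts are 0.617 to 0.763 CPM, differences at day 0 in muscle genes near that level were not detectable.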
